A study of Mus musculus with 3 samples.

Results

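The genes described here are 10 sensors of foreign or misplaced nucleic acid and of microbial products, with the adaptors and the kinase that relay their signals. The set is a list of gene symbols, drawn up with earlier results of these data known. All 10 symbols, Ddx58, Ifih1, Dhx58, Mavs, Tmem173, Tlr3, Tlr4, Myd88, Tbk1 and Ticam1, were found among the 18287 listed genes, in the table of each treatment against control. RNA came from mouse aortic endothelial cells, the lining cells of the aorta, obtained commercially; strain, sex, age and passage are not given in the sources used here. The control cells had neither treatment. A second group received 5 mU/mL glucose oxidase during 30 min, an enzyme that oxidises glucose and releases hydrogen peroxide. In the last group this was combined with 24 h of ethyl-2-hydroxybenzylamine (Et2HOBA) at 0.2 mM, a scavenger of isolevuglandins, which are reactive lipid oxidation products. Which exposure came first is not stated in the labels, and cells with Et2HOBA alone were not analysed here. Each group was 1 library, and both comparisons against control use the same control library. Where 3 values are given for a gene, their order is control, glucose oxidase, both treatments.

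Ddx58, Ifih1 and Dhx58 encode RIG-I, MDA5 and LGP2, helicases that bind viral RNA in the cytosol. RIG-I and MDA5 pass their signal through MAVS, an adaptor on the mitochondrial outer membrane, while LGP2 lacks the signalling domains and modulates the other two. TLR3 binds double-stranded RNA in endosomes and signals through TRIF (Ticam1), and TLR4 recognises bacterial lipopolysaccharide and uses both MyD88 and TRIF. STING (Tmem173) is activated by the cyclic dinucleotide that cGAS makes on cytosolic DNA. MAVS, STING and TRIF all engage the kinase TBK1, which phosphorylates IRF3 to start interferon transcription. RIG-I, MDA5, LGP2 and TLR3 are themselves induced by interferon, a known feed-forward loop.

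Because each condition is a single library, no difference could be set against a replicate spread, and conditions were not tested against each other. The 95% intervals below are exact Poisson or Clopper-Pearson intervals that cover counting error only, so they compare libraries. The libraries held 35005089 to 40212212 reads over the listed genes. Read counts after glucose oxidase were worked back from deposited log2 values (see processing). A relative level is the ratio of normalized counts between 2 libraries. A gene is called lower or higher where its log2 ratio of normalized count plus 10 is 1 or more in size.

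Levels per gene length are RPKM values, which are reads scaled to exon length and to the library total. All 10 endothelial markers looked for, Pecam1 and Cdh5 (VE-cadherin) among them, were listed, at 27.6 to 993 RPKM in control and 8.91 to 449.5 with both treatments. Their summed level was 2558, 1740 and 1581 RPKM. With both treatments 5 of them, Tek, Vwf, Cldn5, Kdr and Erg, were called lower and Nos3 higher. Over all listed genes 8.04% were called lower and 6.66% higher in that comparison. After glucose oxidase alone 3 of the 10, Tek, Kdr and Vwf, were already called lower and none higher, against 8.60% and 4.07% of all genes. Of 10 myeloid markers 4 were listed, with a summed level of 186.5, 391.8 and 555.5 RPKM, nearly all of it from Cd68, a lysosomal protein (8215, 17067 and 27799 reads). Lyz2, the gene of a lysozyme, went the other way, with 186, 76 and 86 reads, and was called lower in both comparisons against control. Cd14 went the same way as Cd68, with 55, 136 and 272 reads, and was called higher in both. The receptor Csf1r had 6, 12 and 10 reads, and Ptprc, Adgre1 and Itgam were not among the listed genes. Smooth muscle and fibroblast markers summed to 85, 135 and 184 reads over 5 listed genes. With both treatments 2 of these, Myh11 (19, 35 and 73 reads) and Pdgfrb (21, 43 and 71), were called higher. A further 2, Tagln and Col1a1, had log2 ratios below 0 and were not called. Of 5 lymphoid markers only Cd79a was listed, at 6, 9 and 2 reads. The part of these marker differences, or of other cell types, in the results below was not tested. In such bulk samples, fewer cells of a type and less RNA per cell cannot be told apart.

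Against control, the RNA sensors had the lowest relative levels of the set. Tlr3, Dhx58 and Ifih1 were at 0.260 to 0.291 of control in the library given both treatments, Ddx58 was at 0.580, and the adaptors Mavs, Tmem173 and Myd88 lay between 0.663 and 0.792. Tbk1, Ticam1 and Tlr4 stayed between 0.916 and 1.15 of control. In all, 3 of 10 genes were called lower in that library, where 8.04% of all listed genes and 9.30% of the protein-coding genes were. None was called higher, against 6.66% of all genes. After glucose oxidase alone 1 of 10, Ifih1, was called lower, against 8.60% of all genes and 4.76% of protein-coding genes, and none was called higher, against 4.07%. Between the treated libraries 1 of 10, Tlr3, was called lower with Et2HOBA, against 2.15% of all genes and 2.35% of protein-coding genes, and none higher, against 6.39%. The medians of the 10 log2 ratios were -0.14, -0.54 and -0.31 in these comparisons, taken as glucose oxidase against control, both treatments against control, and both against glucose oxidase. Over all genes the medians were -0.01, 0.00 and 0.00.

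**Figure D1:**
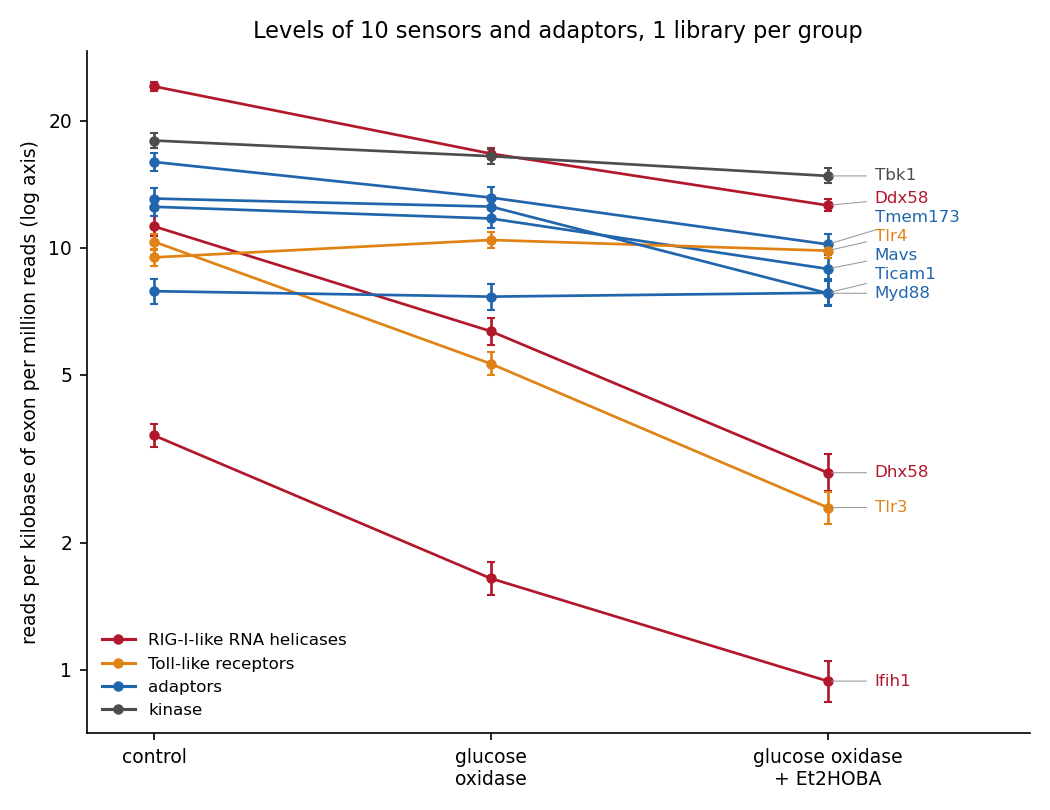
Levels of the 10 genes as RPKM (logarithmic axis) in each of the 3 libraries, with 95% Poisson intervals; lines only join the values of 1 gene. Tlr3, Dhx58 and Ifih1 separate from the rest, from 10.3, 11.2 and 3.60 in control to 2.43, 2.93 and 0.941 with both treatments, while Tlr4 and Ticam1 run nearly level.

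Tlr3 (ENSMUSG00000031639.12, chromosome 8, 45395665 to 45411080, minus strand) encodes the endosomal receptor for double-stranded RNA. The control library held 1938 Tlr3 reads, the glucose oxidase library 969 and the library with both treatments 508. Its relative level was 0.535 of control after glucose oxidase (95% interval 0.494 to 0.578) and 0.260 with both (0.236 to 0.287). Each library was thus clear of the one before it, and the library with Et2HOBA stood at 0.487 of the one without (0.437 to 0.543). Only 3.06% of protein-coding genes had a lower log2 ratio than Tlr3 with both treatments against control, and 2.24% in the comparison of the treated libraries. A noncoding gene on the other strand, Gm45542, shares 381 exon bases with Tlr3 and was not among the listed genes.

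Dhx58 (ENSMUSG00000017830.15, chromosome 11, 100694884 to 100704271, minus strand), the gene of LGP2, had 1324, 727 and 386 reads. Relative to control this was 0.587 (0.535 to 0.643) and then 0.290 (0.258 to 0.325). The treated libraries also differed from each other, at a ratio of 0.494 (0.435 to 0.559). On the log2 scale used for calling that last value was -0.9996, just inside the limit of 1, so Dhx58 was not called there. The antisense transcript Dhx58os overlaps 141 of its exon bases and had 5, 4 and 0 reads.

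Ifih1 (ENSMUSG00000026896.14, chromosome 2, 62595798 to 62646255, minus strand) encodes MDA5, which binds long double-stranded RNA. Its reads numbered 1056 in the control library, 471 in the glucose oxidase library and 309 in the third. Its level was 0.477 of control after glucose oxidase (0.427 to 0.532), the lowest of the 10 in that comparison, and 0.291 with both (0.2553 to 0.3304). More of its difference from control was therefore already present without Et2HOBA than for Tlr3 or Dhx58: the log2 ratio was -1.05 after glucose oxidase and -0.70 between the treated libraries, whereas Tlr3 had -0.90 and -1.02 and Dhx58 had -0.76 and -0.9996. No test of this contrast between genes was possible.

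Ddx58 (ENSMUSG00000040296.15, chromosome 4, 40203773 to 40239828, minus strand), the gene of RIG-I, was the most abundant of the 10 per exon length in control. It had 6123, 4128 and 3576 reads, so the control library was the highest and the library with both treatments the lowest. The relative levels were 0.721 of control (0.6926 to 0.7498) and 0.580 (0.557 to 0.605), a smaller difference than for the other helicases. With Et2HOBA it stood at 0.805 of the glucose oxidase level (0.770 to 0.842). It was not called in any comparison.

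The promoter windows of Ifih1, Ddx58 and Myd88 hold a sequence feature of interferon-responsive genes, shown here because the members with the largest differences are known interferon targets. The interferon-stimulated response element (ISRE) core was searched as GAAANNGAAA on both strands, in windows from 250 bases before to 50 bases after the RefSeq start site (GRCm38.p6). Windows were held for 7 of the 10 genes, with none for Dhx58, Tmem173 and Tlr4. Of the 7, 3 had a match, Ifih1, Ddx58 and Myd88, against 3.44% of all 32851 windows. The matches are given in the direction of transcription with up to 10 bases on each side, and capitals mark the match; the Ddx58 match reads as the core on the opposite strand.
Ifih1, chr2:62646206-62646233, minus strand: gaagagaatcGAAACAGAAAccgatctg
Ddx58, chr4:40239804-40239833, minus strand: cctgaggcagTTTCGATTTCctatggccag
Myd88, chr9:119340039-119340068, minus strand: gagcttctcgGAAAGCGAAAgaaggagggg

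The Myd88 match lies 40 to 31 bases before the RefSeq start site, while those of Ddx58 and Ifih1 lie just after it, at transcribed bases 3 to 12 and 33 to 42. The first bases of the Myd88 match also belong to a match of the gamma-activated sequence TTCNNNGAA, the only one in the 7 windows, where 8.30% of all windows hold 1 or more. The window of Tlr3 had no ISRE core but had a match to the NF-kappaB consensus (kappaB), 211 to 202 bases before the start, a motif that 8.46% of all windows hold. The annotated gene spans begin further upstream, at 119341411 for Myd88 and 45411080 for Tlr3 on the minus strand. By these spans the Myd88 and Tlr3 matches lie inside the gene. The Tlr3 stretch is marked in the same way.
Tlr3, chr8:45410572-45410601, minus strand: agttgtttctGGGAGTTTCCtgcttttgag

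The windows of Mavs, Tbk1 and Ticam1 held none of the 3 motifs. A match describes the letters and is not evidence of binding. With both treatments the 3 genes with the core, Ifih1, Ddx58 and Myd88, were at 0.291, 0.580 and 0.663 of control. Mavs, Tbk1 and Ticam1 were at 0.792, 0.916 and 1.10, and Tlr3, with the kappaB match only, was at 0.260. Whether the matches have a part in these levels was not tested.

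Tlr4 (ENSMUSG00000039005.13, chromosome 4, 66827584 to 66930284, plus strand), the lipopolysaccharide receptor, went the other way from Tlr3. It had 1898, 2031 and 2201 reads. Its level was 1.14 of control after glucose oxidase (1.07 to 1.22) and 1.15 with both treatments (1.08 to 1.23), and the treated libraries did not differ beyond counting error (1.01, 0.948 to 1.07). The 2 differences from control keep their sign when libraries are scaled by total reads, where they become 0.14 and 0.05 on the log2 scale, and the small difference between the treated libraries turns to -0.08. Its coreceptor subunit MD-2 (Ly96) had 318, 286 and 371 reads, with intervals that include the control level in both comparisons against control. Cd14, which hands lipopolysaccharide to the receptor complex, had only 55, 136 and 272 reads, 2.64 (1.92 to 3.68) and 4.91 (3.67 to 6.69) times control.

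Among the adaptors, Myd88 (ENSMUSG00000032508.8, chromosome 9, 119335934 to 119341411, minus strand) differed between the treated libraries and hardly between glucose oxidase and control. It had 1213, 1130 and 809 reads. Its level was 0.996 of control after glucose oxidase (0.918 to 1.08), 0.663 with both (0.606 to 0.725), and 0.665 between the treated libraries (0.607 to 0.729). The glucose oxidase and control libraries were indistinguishable for this gene, and the library with Et2HOBA was below both. Acaa1a, a peroxisomal enzyme gene on the other strand, shares 290 exon bases with Myd88 and had 2732, 2485 and 2677 reads. If strand was not used in counting, reads from the shared bases cannot be assigned to 1 of the 2 genes.

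Mavs (ENSMUSG00000037523.13, chromosome 2, 131234063 to 131248025, plus strand) showed the same order at a smaller size. It had 1506, 1375 and 1200 reads, which is 0.976 of control (0.907 to 1.05) and then 0.792 (0.733 to 0.855). Tmem173 (ENSMUSG00000024349.10, chromosome 18, 35733679 to 35740554, minus strand), the gene of STING, had 1576, 1263 and 1124 reads. It was at 0.857 of control after glucose oxidase (0.795 to 0.923) and 0.709 with both treatments (0.656 to 0.765). For STING the counting intervals of both treated libraries lay below the control level, whereas for Mavs only that of the library with Et2HOBA did. The contrast between these genes was not tested.

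Ticam1 (ENSMUSG00000047123.8, chromosome 17, 56269319 to 56276786, minus strand), the gene of TRIF, had 850, 803 and 942 reads. Its level was 1.01 of control after glucose oxidase (0.916 to 1.11) and 1.10 with both treatments (1.003 to 1.21); scaling by total reads turned both log2 ratios slightly below 0, to -0.04 and -0.01. Tbk1 (ENSMUSG00000020115.3, chromosome 10, 121546455 to 121586787, minus strand) had 2527, 2258 and 2329 reads, or 0.955 (0.902 to 1.01) and 0.916 (0.865 to 0.969) of control. Scaling by total reads took the log2 ratios of Tbk1 to -0.12 and -0.28. The kinase and the TRIF adaptor thus stayed closer to their control level in both treated libraries than Tlr3, whose product signals through TRIF.

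**Figure D2:**
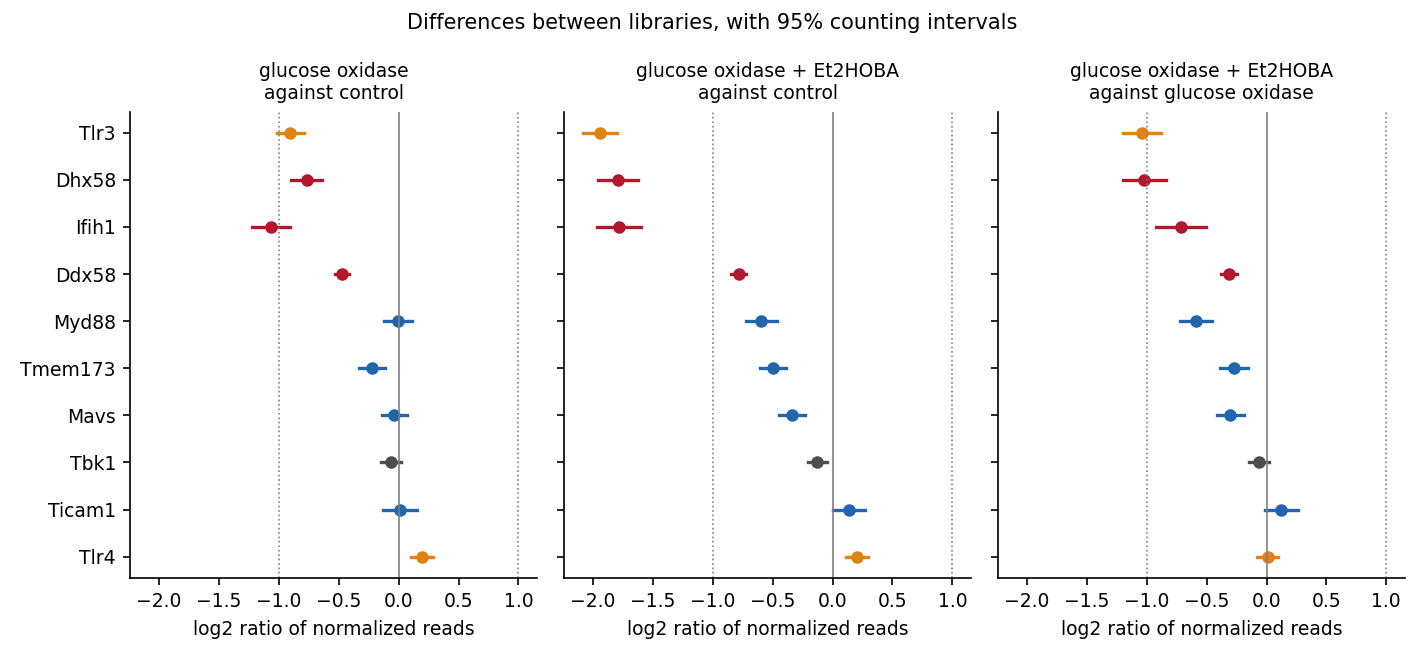
Log2 ratio of normalized reads, without a pseudocount, for each of the 10 genes in 3 comparisons of libraries; bars are 95% Clopper-Pearson intervals for counting error, dotted lines mark 1 log2 unit, and colours give the role as in the plot of levels. Tlr3, Dhx58 and Ifih1 stand at the far left in the middle panel and Tlr4 lies to the right of 0 in both panels against control.

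The order of the genes by level per exon length changed between libraries. In control it ran Ddx58 (24.1 RPKM), Tbk1 (17.97), Tmem173 (15.98), Myd88 (13.1), Mavs (12.5), Dhx58 (11.2), Tlr3 (10.3), Tlr4 (9.497), Ticam1 (7.90) and Ifih1 (3.60). Counting intervals of neighbours overlapped for Myd88 and Mavs, for Dhx58 and Tlr3, and for Tlr3 and Tlr4. After glucose oxidase Ddx58 (16.7) and Tbk1 (16.5) could no longer be separated, and Dhx58 (6.35) and Tlr3 (5.32) had passed below Ticam1 (7.67). With both treatments Tbk1 (14.8) was first, ahead of Ddx58 (12.6), and the lowest 3 were Dhx58 (2.93), Tlr3 (2.43) and Ifih1 (0.941), each apart from its neighbours. In that library the intervals of Tmem173 and Tlr4, and of Ticam1 and Myd88, overlapped.

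Ratios between genes within 1 library do not depend on how libraries are scaled. Per kilobase of exon, Tlr3 had 1.31 times the reads of its adaptor gene Ticam1 in control (1.21 to 1.42), 0.693 times after glucose oxidase (0.631 to 0.762) and 0.310 times with both treatments (0.278 to 0.346). Against Mavs, Ifih1 went from 0.287 to 0.140 and 0.105, and Dhx58 from 0.899 to 0.541 and 0.329. Ddx58 had 1.93 times the level of Mavs in control and then 1.42 and 1.41 times, so that the relation of RIG-I to its adaptor was the same in the 2 treated libraries within counting error. Among the sensors, RIG-I transcript exceeded MDA5 transcript 6.72 times in control (6.29 to 7.18), 10.2 times after glucose oxidase (9.23 to 11.2) and 13.4 times with both (11.9 to 15.1). The ratio of Tlr4 to Myd88 was 0.725 in control (0.675 to 0.780), 0.833 after glucose oxidase (0.774 to 0.897) and 1.26 with both. The intervals of control and glucose oxidase overlap. Between the treated libraries Tlr4 itself was at 1.01 and Myd88 at 0.665. The ratio of Tlr4 to Ly96 was 1.10, 1.31 and 1.09. Tlr3 and Tlr4 were at similar levels in control, with a ratio of 1.09, and at ratios of 0.509 and 0.246 in the treated libraries.

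**Figure D3:**
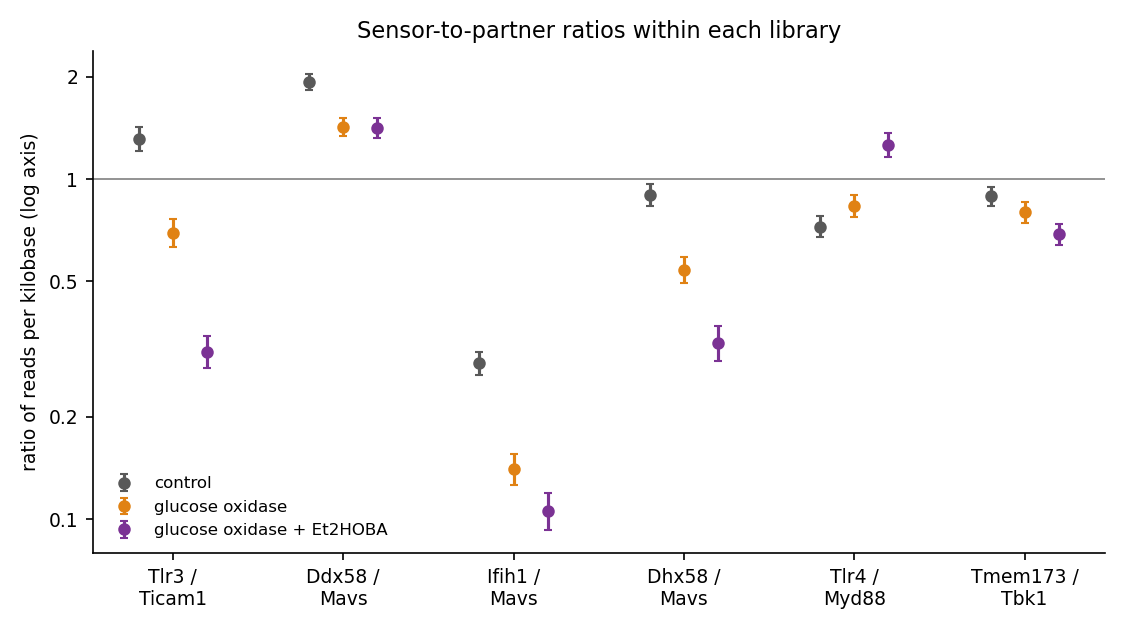
Ratio of reads per kilobase of exon between a sensor or adaptor and a gene of the same pathway within each library (logarithmic axis), with 95% Clopper-Pearson intervals. The ratio of Tlr3 to Ticam1 is 1.31, 0.693 and 0.310, and of the 6 ratios plotted only Tlr4 to Myd88 is higher in both treated libraries than in control. The intervals of Tlr4 to Myd88 in control and after glucose oxidase overlap.

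Other genes of these pathways were examined as lists, which were drawn up with earlier results of these data known. The counts called in each list stand beside the shares over all genes given above. With both treatments these were 8.04% lower and 6.66% higher, and after glucose oxidase 8.60% lower and 4.07% higher. Of 16 other Toll-like receptors and coreceptors 10 were listed; 3 were called lower and 1 higher with both treatments against control, and 1 each after glucose oxidase. Tlr2, the receptor for bacterial lipoproteins, had 2403, 721 and 540 reads, or 0.321 and 0.223 of control, and most of that difference was present without Et2HOBA. Lbp, the lipopolysaccharide-binding protein, was at 0.559 and 0.431 of control. Tlr1, with 23, 10 and 5 reads, was low in all 3 libraries, and Cd14, described above, was the gene called higher. The endosomal receptor Tlr13 stayed close to control at 0.987 and 1.10. Unlike Tlr3, it senses bacterial ribosomal RNA.

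Of the 20 listed genes among 22 other nucleic acid sensors, 9 were called lower and 1 higher with both treatments, and 2 lower and none higher after glucose oxidase. The median log2 ratios were -0.81 and -0.35. Ddx60, a helicase reported to aid RIG-I-like receptors, had 599, 225 and 55 reads, or 0.0912 of control with both treatments (0.0679 to 0.120). Oas2, which makes the activator of RNase L, had 684, 280 and 101 reads, or 0.147 of control. Oas1a and Oas1g were at 0.355 and 0.333, and both belong to a family of close copies, so their values are uncertain where reads could match more than 1 of them. The DNA sensor Cgas, upstream of STING, had 258, 220 and 181 reads, or 0.912 (0.758 to 1.10) and 0.697 (0.573 to 0.846) of control, values near those of Tmem173. Ifi204, a member of another family of close copies, was the gene called higher, at 2.603 times control.

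Relay genes other than Mavs, Tmem173, Myd88, Tbk1 and Ticam1 formed another list. Of 23 listed adaptors, kinases and ubiquitin ligases none was called lower in any comparison, and 2 were called higher with both treatments, Tab2 (2.20 times control) and Ikbkg (2.07 times), which encode a TAK1-binding protein and the regulatory subunit NEMO. The list's median log2 ratios were 0.05 after glucose oxidase and 0.16 with both treatments. Ikbke, the kinase related to TBK1, had 7472, 5752 and 3896 reads, or 0.823 and 0.518 of control, and so was further from control than Tbk1. Rnf135, the ubiquitin ligase Riplet that activates RIG-I, was at 0.868 and 0.512, and Trim25, a further ligase linked to RIG-I, at 0.849 and 0.685. Traf3 was at 0.782 and 0.656, while Traf6 and Tirap, on the MyD88 branch, were at 1.02 and 1.09 after glucose oxidase and 1.13 and 1.21 with both.

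Inhibitors of these pathways split. Of 14 listed genes, 3 were called lower and 1 higher with both treatments, and 1 each after glucose oxidase. Most of the list was not reduced. Its median log2 ratios were 0.07 after glucose oxidase and 0.21 with both treatments, and 5 of the 14 were below 0 in each of these comparisons. The genes named next are those with the largest differences. Usp18, which removes ISG15 and restrains the interferon receptor, had 1276, 514 and 274 reads, or 0.431 and 0.213 of control. Ptpn6 had 97, 49 and 16 reads, and Rnf125, a ubiquitin ligase that marks RIG-I for degradation, was at 0.564 and 0.431. Socs3 was the gene called higher, with 194, 437 and 450 reads.

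Interferon signalling genes and effectors were looked at as 2 further lists. Of 17 regulatory factors and signalling genes, 4 were called lower and 1 higher with both treatments, and none lower and 1 higher after glucose oxidase. Irf7, which amplifies interferon transcription, had 1250, 624 and 360 reads, at 0.534 and 0.286 of control. These values stand beside those of Tlr3, at 0.535 and 0.260. Irf1 was at 0.789 and 0.392, and Irf3, the substrate of TBK1, at 0.937 and 0.839. Irf5 was the gene called higher, with 12, 78 and 108 reads, and 11 of the 17 log2 ratios were below 0 in each comparison against control. Ifnb1, the gene of interferon beta, had 5, 0 and 0 reads, too few to place a difference.

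Of the 17 interferon-stimulated effectors other than Ifih1, 14 were called lower with both treatments, 9 after glucose oxidase and 7 between the treated libraries, and none was called higher. Their median log2 ratios were -1.95, -1.02 and -0.92. Oasl2 had 1504, 582 and 162 reads, Rtp4 had 2745, 957 and 444, Ifit1 had 4679, 2149 and 841, and Isg15, a ubiquitin-like modifier, had 1444, 490 and 267. These were 0.107, 0.161, 0.179 and 0.184 of control with both treatments. They were named because they had the largest differences of their list in that comparison, so they do not place the list against the sensors. The 3 not called were Ifi27, Oasl1 and Bst2, at 1.12, 0.866 and 0.511 of control. As for Tlr3, Dhx58, Ifih1 and Ddx58, the glucose oxidase library lay between the other two for all 4 effectors given with reads. For Oasl1 the glucose oxidase library was the lowest of the 3, at 0.814 of control, and for Ifi27 the highest, at 1.23.

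**Figure D4:**
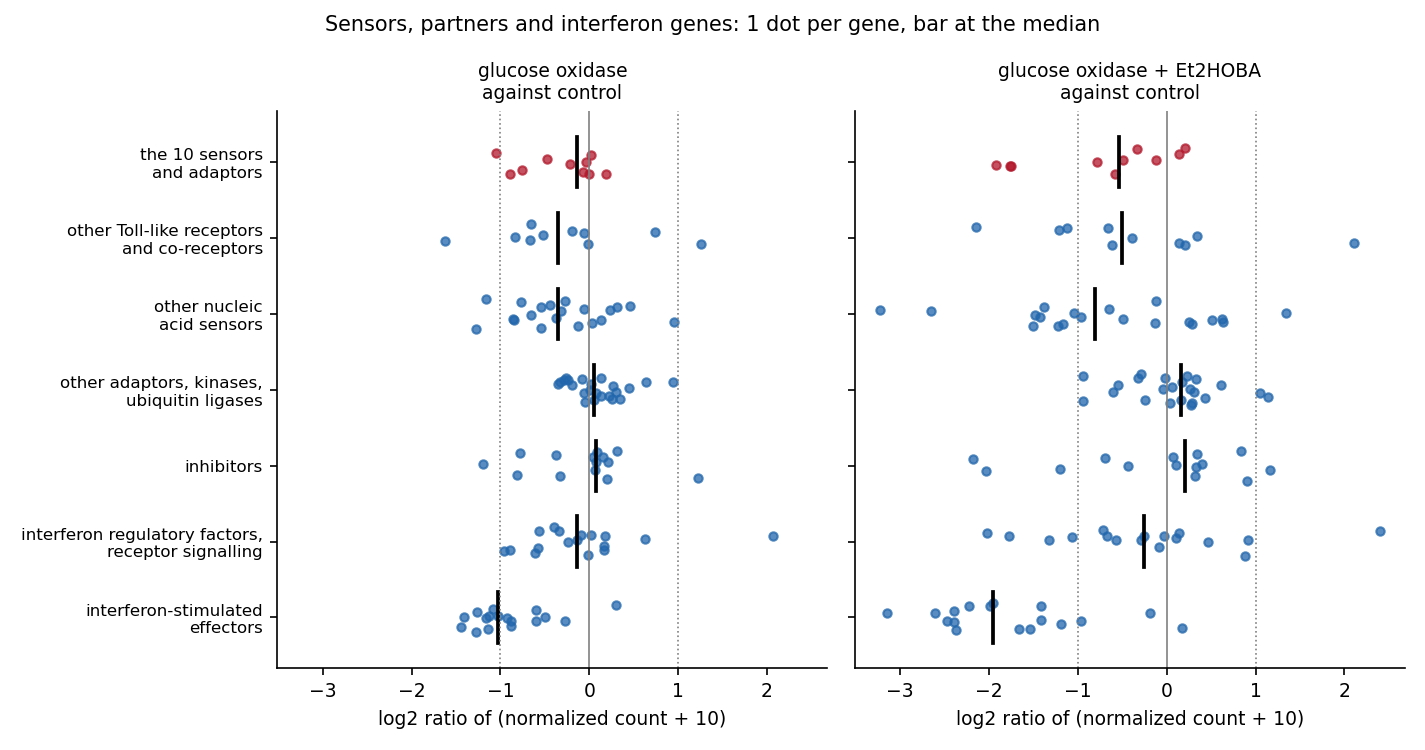
Log2 ratio of normalized count plus 10 for each listed gene of the pathway lists, with glucose oxidase against control on the left and glucose oxidase plus Et2HOBA against control on the right; black bars are list medians and dotted lines mark 1 log2 unit. With both treatments the medians are -0.54 for the 10 sensors and adaptors, -0.81 for other nucleic acid sensors, 0.16 for other adaptors and kinases and -1.95 for interferon-stimulated effectors.

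In the authors' deposited table of glucose oxidase against control the log2 differences of Ifih1, Tlr3 and Dhx58 were -0.85, -0.79 and -0.64. In the authors' deposited table of both treatments against control they were -1.59, -1.81 and -1.63. The 2 tables shrink low counts by different amounts, so these are not compared with each other. The authors' deposited table that sets the treated libraries against each other holds only 7 genes. None of the 10 is among them, which says little about these genes.

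By the log2 ratios of both treated libraries against control, the protein-coding genes nearest to the medians of the 10 were 9130019O22Rik, Slc37a2, Rmnd1, Cox7a2 and Coa7, at Euclidean distances of 0.0106 to 0.0175 among 10587 candidates. This likeness rests on 3 libraries, and 164 candidates lay within 0.1.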

How the data were processed

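Polyadenylated RNA was prepared as stranded libraries, per the labels' protocols. The tools STAR and featureCounts and the build mm10 are named in the submitters' processing notes, with no role; whether counting used strand is not given in the sources used here. The deposited table of both treatments against control holds raw read counts of 2 libraries and log2-scale normalized values, per the file headers. The deposited table of glucose oxidase against control holds a symbol and a log2 difference per gene. The transformation behind it, an inverse hyperbolic sine of the root of the count, is not stated and was found from the values. It was inverted with the deposited control counts. Of 18258 genes matched by symbol, 100% then had a whole glucose oxidase count (tolerance 0.01), and 3.30% did after 1 read was added to every control count. A further 29 genes with repeated or date-altered names were placed by whole reads.

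Size factors by the median of ratios over the 3 libraries (1.03, 0.965 and 1.04, in the order used throughout) scaled the counts. Log2 ratios used a pseudocount of 10, and relative levels none. RPKM used exon-union lengths of GENCODE release M21, whose positions matched for all 17878 gene IDs of the same version, and library totals. No 50-base stretch of the longest transcript was shared with another gene, except 4.06% for Dhx58, 1.56% for Tlr3 and 7.26% for Myd88, in each case with the overlapping gene named. The members and lists were chosen with earlier results of these data known. From each list the text names up to 4 genes with a mean normalized count of 10 or more and the largest difference with both treatments, set partner genes of the members, and a few others chosen after their values were seen (Tlr13, Ifi204, Ifnb1, Oasl1, Ifi27, Bst2). A gene that this rule names is not reported here. Recovery, ratios and intervals were tested on simulated data. edgeR 4.0.16 supplied TMM scaling, with Python 3.11.15, scipy 1.17.1 and pandas 2.3.3 for the rest. No count model was fitted, since 1 library per group gives no spread.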

Additional observations from a re-analysis of the deposited data

How the results depend on the processing

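No paired analysis was possible because each group holds 1 library. With both treatments against control, the count of 3 called genes held under total-count and TMM scaling, a pseudocount of 1, a minimum mean count of 100, the deposited log2 differences, and size factors from protein-coding genes (an alternative chosen after seeing the data); at a limit of 0.5 it was 5. The median of -0.54 became -0.69 with total-count scaling, which shifts the median of all genes by -0.13. Under that scaling only 3 of the 10 single log2 ratios stayed within their counting intervals in this comparison. For glucose oxidase against control the count of 1 became 0 on the deposited log2 differences, whose transformation shrinks low counts, and 3 at a limit of 0.5. Between the treated libraries Tlr3 and Dhx58 lie close to the limit: the count of 1 became 2 with total-count scaling, 2 with TMM, 2 with a pseudocount of 1, 0 with protein-coding size factors and 4 at a limit of 0.5. The deposited log2 differences could not be used there, since that table holds only 7 genes and none of the 10. Signs of single genes changed for Ticam1 against control (total-count scaling in both comparisons, protein-coding size factors after glucose oxidase) and for Tlr4 between the treated libraries (total-count scaling). Depth limits the genes with few reads, such as Tlr1, Irf5 and Ifnb1.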
